A study of Danio rerio with 12 samples.

Results

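The genes described here are a list of 53 genes that copy DNA at the replication fork or make its building blocks, and 43 of them were measured, by 47 of the 15502 probe sets. Members were found by gene symbol, and a gene with 2 probe sets is given as their mean log2 ratio. The other 10 (rfc2, pole, prim2, dbf4, chaf1a, rrm2, dhfr, e2f1, ccne2 and timeless) matched no probe set and were not analysed here. Of 8793 genes with a symbol, the 43 fell into 6 roles: 8 of the clamp, its loader and single-strand binding, 8 of polymerases and primase, 10 of fork assembly and licensing, 4 of strand maturation and chromatin assembly, 8 of nucleotide synthesis and 5 of cycle control and repair.

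A cell licenses its origins in G1 and fires them in S phase, when the helicase opens the DNA, replication protein A coats the single strands and primase starts each new strand. The sliding clamp then tethers the polymerases, and the fragments of the lagging strand are trimmed and sealed. Most of these genes are transcribed more in cells about to enter S phase, and growth of the cut fin depends on dividing cells in its blastema and epidermis. The roles given below are those known mainly from the human and yeast proteins.

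The tissue was the regrown caudal fin of AB strain zebrafish larvae whose fins had been amputated at 2 days post fertilization, in controls and exposed larvae alike. Larvae then spent 1 h in DMSO vehicle or in 0.5 ng/mL TCDD, a dioxin that activates the aryl hydrocarbon receptor, and tissue was taken 2 or 3 days post amputation (dpa). The 4 groups (vehicle 2 dpa, TCDD 2 dpa, vehicle 3 dpa and TCDD 3 dpa) had 3 arrays each, and the RNA on every array came from 150 pooled fins. The p-values therefore measure the variation between pools, and in whole tissue fewer cells of a type and less RNA per cell cannot be told apart.

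A deposited value is the ratio of a probe set to its own median over the 12 arrays, so 0 on the log2 scale is that median and levels of different genes cannot be compared. For 39 of the 43 genes every probe set had this median at 1. Those of gins1, cdc45 and msh6 and 1 of the 2 for tk1 had medians of 0.971, 0.916, 0.439 and 0.620, the form seen where small divisors are replaced by a minimum. The level of the labelled tissue's markers cannot be checked on such a scale. The exposure can: cyp1a, the monooxygenase induced through the aryl hydrocarbon receptor, read −10.34 to −5.37 on the vehicle arrays and 0.98 to 2.10 on the TCDD arrays (limma adjusted p = 0.000663 for the mean of both days). The vehicle value of −10.34 is the lowest ratio in the data, and no fold is given because signal above background cannot be read there.

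Some arrays stood apart from their labels or from the rest. The TCDD arrays 2 dpa replicate 3 and 3 dpa replicate 1 resembled each other (r = 0.810 across 13500 rows, which are not independent replicates) more than their own groups, and the closest pair within a group, vehicle 2 dpa replicates 1 and 2, had r = 0.675. TCDD 3 dpa replicate 3 had r = 0.510 with the first of the pair and 0.474 with the second. Within its own group the first had −0.075 and −0.096. TCDD 3 dpa replicate 2 had −0.202 and −0.069 within its group. Results by day rest on those labels, so values without this pair are given. TCDD 3 dpa replicates 2 and 3, which then remain, had r = −0.069, so leaving out the pair does not settle the labels. Vehicle arrays also resembled other groups. Vehicle 3 dpa replicate 2 had r = 0.552 and 0.514 with vehicle 2 dpa replicates 1 and 2, against 0.407 and 0.060 within its group. Vehicle 2 dpa replicate 3 was closest to vehicle 3 dpa replicate 1 (0.470, at most 0.351 within its group). Vehicle 3 dpa replicate 3 was closest to TCDD 3 dpa replicate 2 (0.356, at most 0.144 within its group). Vehicle arrays were left out only singly. The hybridisation controls read 0.260 to 0.292 on the 3 vehicle arrays at 3 dpa and 0.344 on TCDD 3 dpa replicate 2, against −0.143 to −0.0125 on the other 8. Only the TCDD 3 dpa group holds both levels. A block for this level therefore rests on its replicate 2 against its replicates 1 and 3. The 5′ minus 3′ difference of the gapdh control probe sets, a measure of RNA length, ran from −0.102 to 0.0816 on vehicle arrays and from 0.169 to 0.486 on TCDD arrays. These ranges do not overlap, so the measure cannot be told apart from treatment on these arrays, and its part in the results was not tested.

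In vehicle fins the replication genes varied widely between pools, and in TCDD fins they lay low and close together. The median of the 43 genes was 0.07, 0.07 and 1.14 in vehicle replicates 1, 2 and 3 at 2 dpa and 0.68, 0.03 and 0.81 at 3 dpa. With TCDD it was −0.34, −0.30 and −0.15 at 2 dpa and −0.12, −0.38 and −0.15 at 3 dpa. So 3 vehicle arrays (2 dpa replicate 3, 3 dpa replicates 1 and 3) were high, the other 3 were near 0, and all 6 TCDD arrays were below 0. The place of 0 is set by the scaling: where a probe set's median is 1, its 6 lowest arrays read at or below 0. The sign of a value is therefore not a result, and the order and distances of the arrays are.

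**Figure D1:**
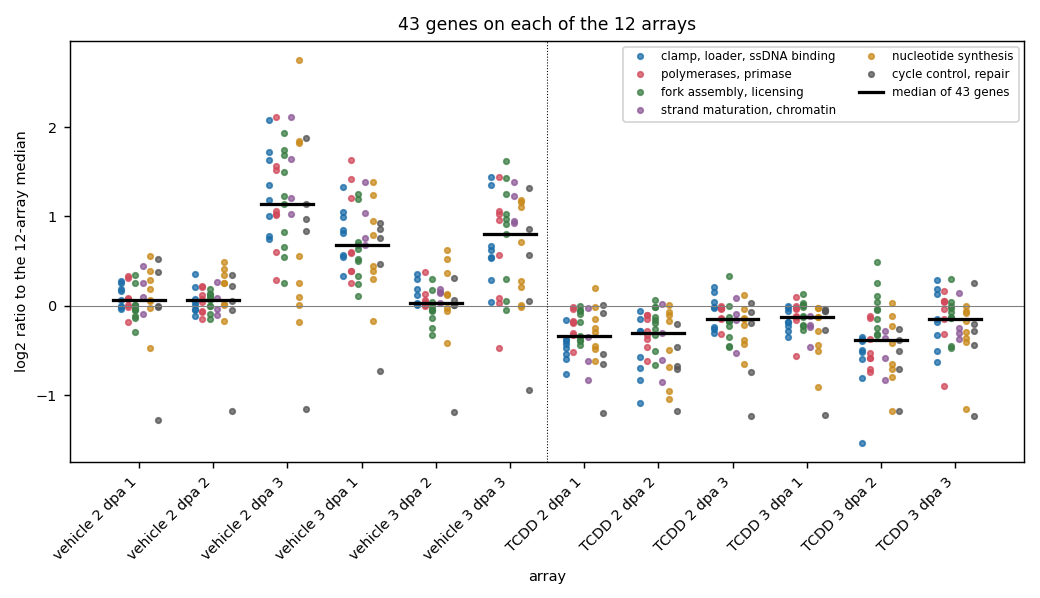
Log2 ratio to the 12-array median of the 43 genes (vertical axis) on each of the 12 arrays (horizontal axis), coloured by role, with a bar at the median of the genes. The bars of the 6 vehicle arrays run from 0.03 to 1.14 and those of the 6 TCDD arrays from −0.38 to −0.12.

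The same 3 vehicle arrays were above the other 9 for 31 of the 43 genes, against 1.81% of all 13500 rows. These arrays were picked for the high medians of the same 43 genes, so this count describes the pattern and does not test it. The 12 exceptions were rfc3, rfc4, pold2, pold3, pole3, gins1, gins3, tk1, cad, ctps1a, dctpp1 and tipin, and all 4 maturation genes were among the 31. Vehicle 2 dpa replicate 3 was the highest of the 12 arrays for 33 genes (9.47% of all rows), a count with the same limit. The spread over the 6 vehicle arrays (highest minus lowest) had a median of 1.23 and that over the 6 TCDD arrays 0.63, and it was wider in vehicle for 40 genes.

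Replicate SDs give the same contrast by group. The median SD of the 43 genes was 0.63 in vehicle and 0.17 in TCDD fins at 2 dpa, and 0.39 and 0.20 at 3 dpa. Over all rows the 4 medians were 0.12, 0.17, 0.17 and 0.22. The vehicle SD was above the TCDD SD for 40 of the 43 genes at 2 dpa (36.1% of all rows) and for 37 at 3 dpa (36.7%).

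**Figure D2:**
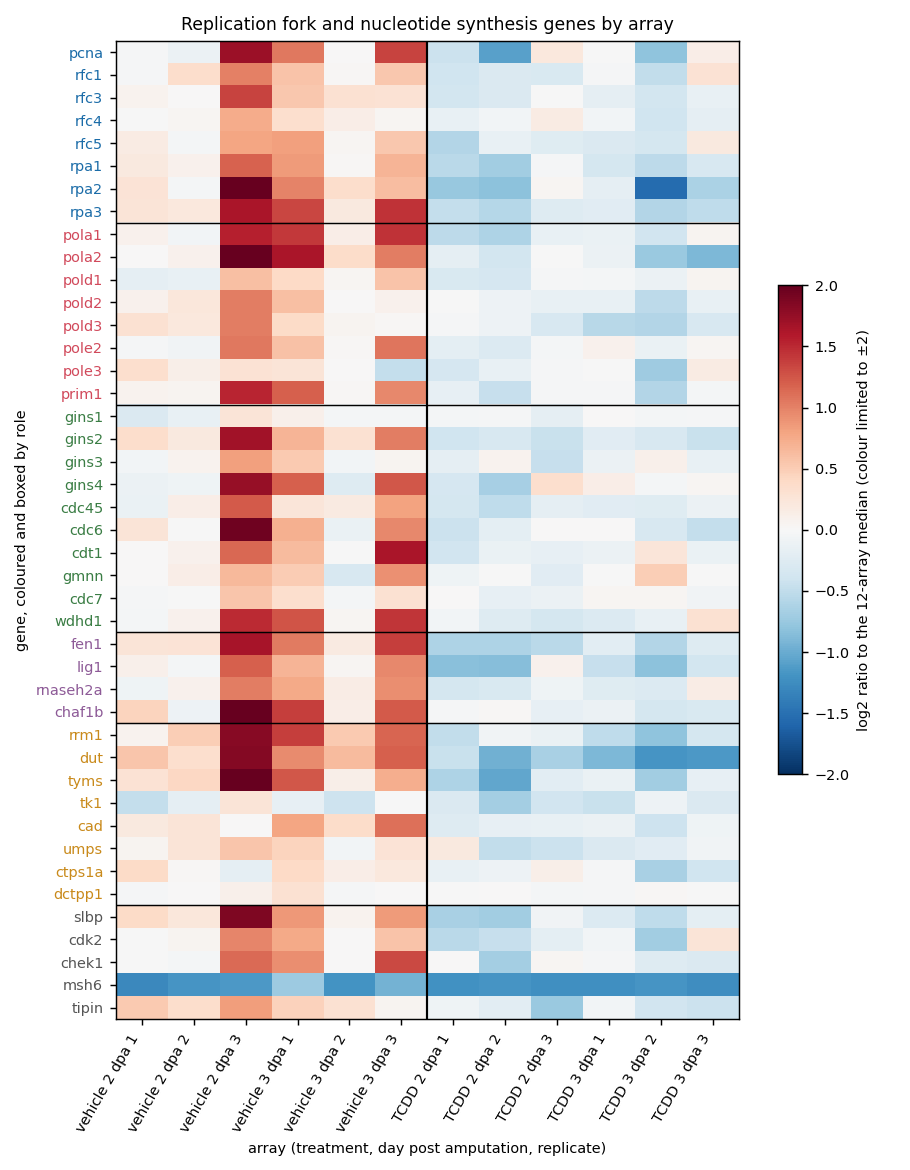
Log2 ratio of each of the 43 genes (rows, boxed by role) on the 12 arrays (columns, 6 vehicle then 6 TCDD), with the colour limited to ±2. The reddest columns stand at vehicle 2 dpa replicate 3 and at vehicle 3 dpa replicates 1 and 3, where 31 of the 43 genes had their 3 highest values.

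At 2 dpa the comparison asks which of these genes TCDD altered in the early regenerate. The 43 mean differences (TCDD minus vehicle) had a median of −0.74, where all rows had −0.01, and the 3 TCDD arrays lay below the 3 vehicle arrays for 25 genes (12.2% of all rows). No gene passed the test at an adjusted p under 0.05 (0.193% of all rows did, and 0.0815% as lower), and 19 were lower at an unadjusted p under 0.05 (6.81%). All 43 mean differences were below 0 (52% of all rows), except that gins1 and msh6 were above 0 when arrays were centred, quantile normalized or weighted, and 41 to 43 were below 0 with each array left out. The lowest differences were −1.77 for tyms and −1.60 for dut, and the smallest adjusted p was 0.118. Without vehicle 2 dpa replicate 3 the median was −0.34, tyms −0.97 and dut −1.14.

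At 3 dpa the comparison is the same a day later, and dut and cad were called. The median difference of the 43 genes was −0.68 (0.01 over all rows), and the groups did not overlap for 25 genes (8.41% of all rows). All 43 were below 0 (47.5% of all rows), but 41 with the hybridisation level as a block. With single arrays left out, 40 were below 0 without vehicle 3 dpa replicate 1, 41 without its replicate 3 and 42 without TCDD 3 dpa replicate 2. Only those 2 genes, both lower, passed the adjusted test in the fit of all 12 arrays, against 0.311% of all rows, and 21 were lower at an unadjusted p under 0.05 (8.71%). With the hybridisation level as a block the median was −0.87 and cad alone was called. In that fit TCDD replicate 2, the only TCDD array at the level of the vehicle arrays, alone sets the difference at 3 dpa. No gene was called without the look-alike TCDD pair, or without any 1 of vehicle 3 dpa replicates 1 or 3, TCDD 2 dpa replicates 1 or 2, or TCDD 3 dpa replicates 1 or 3. The count was 1 without vehicle 2 dpa replicate 1 or 2 (dut) or vehicle 3 dpa replicate 2 (cad).

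The mean TCDD effect over both days uses all 12 arrays and gave the most calls. Of the 43 genes, 11 fell and 0 rose, beside 3.67% and 2.13% of all rows, and 34 were lower at an unadjusted p under 0.05 (12.7%). The 11 were dut, cad, rrm1, rpa1, rpa3, pold3, gins2, fen1, lig1, slbp and tipin. The 6 TCDD arrays lay wholly below the 6 vehicle arrays for 15 genes (2.9% of all rows): all of these 11 but lig1, and also rfc3, pola2, pold2, prim1 and tyms. All 43 mean differences were below 0 here (49.1% of all rows), except that gins1 was above 0 when arrays were centred, quantile normalized or weighted, and 42 or 43 were below 0 with each array left out.

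Role medians of this mean effect were −0.78 for the clamp group, −0.59 for polymerases and primase, −0.69 for fork assembly, −1.03 for strand maturation, −0.56 for nucleotide synthesis and −0.74 for cycle control, and 0.00 over all rows. Differences between roles were not tested. The calls numbered 2, 1, 1, 2, 3 and 2 in that order.

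**Figure D3:**
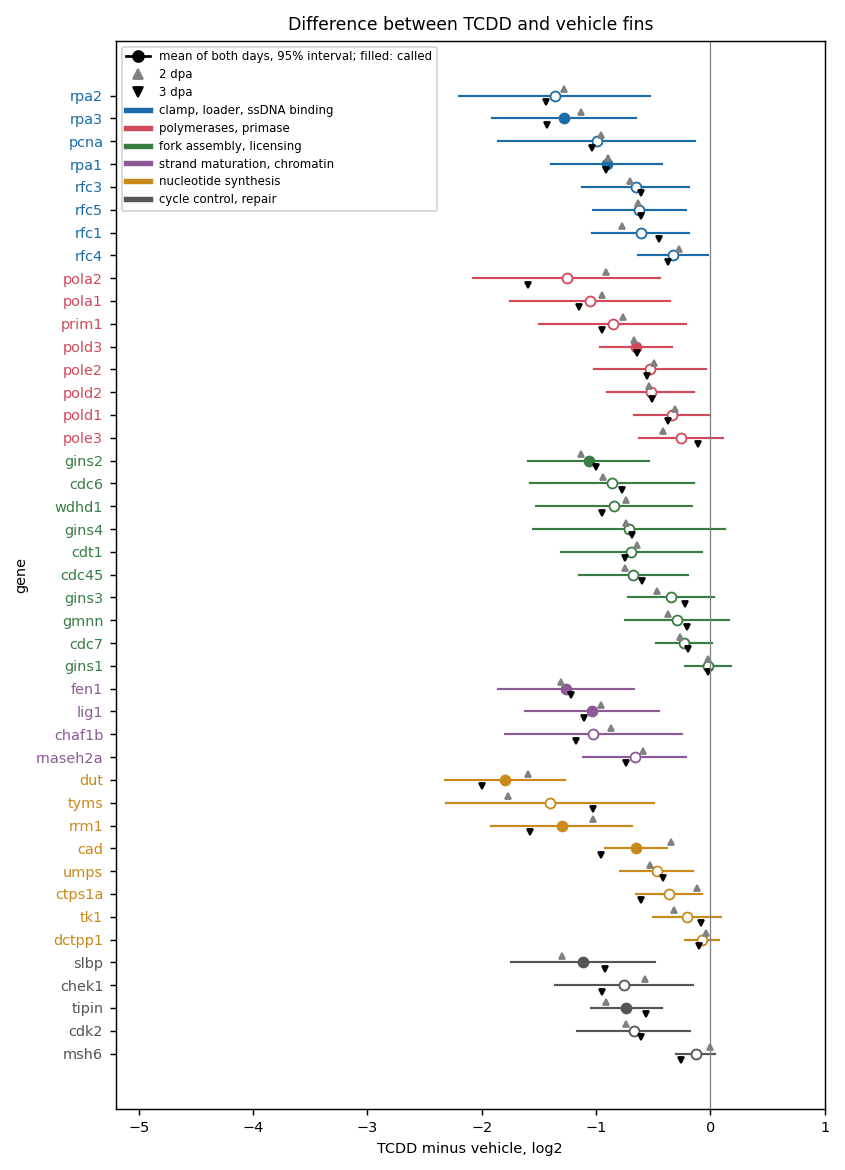
TCDD minus vehicle on the log2 scale (horizontal axis) for the 43 genes, grouped and coloured by role. Circles with 95% intervals are the mean of both days, filled for the 11 called genes, and triangles are the days; dut stands lowest at −1.80, and gins1 at −0.02 and dctpp1 at −0.07 nearest 0.

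These calls differed in how far they depended on single arrays. dut was called under all 25 alternatives, cad under 24 and tipin under 22. tipin was lost with the hybridisation level as a block, without moderation, and without vehicle 3 dpa replicate 1. The other 8 were lost in these same settings, and also without TCDD 3 dpa replicate 1 and without the look-alike pair. The median over the 43 genes stayed between −0.78 and −0.51 when each array was left out in turn.

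Nucleotide synthesis held both the widest and some of the smallest differences. dut encodes dUTPase, which removes dUTP so that uracil is not built into DNA. Its vehicle arrays read 0.56, 0.34 and 1.84 at 2 dpa and 0.95, 0.63 and 1.19 at 3 dpa. Its TCDD arrays read −0.45, −0.96 and −0.65 at 2 dpa and −0.91, −1.18 and −1.15 at 3 dpa. The treatments did not overlap on either day, and the lowest vehicle array was 0.795 above the highest TCDD array. dut was 3.48-fold lower over both days (95% interval 2.42 to 5.01, log2 difference −1.80, SE 0.24, adjusted p = 0.00436) and 3.99-fold lower at 3 dpa (2.39 to 6.69, adjusted p = 0.0318). At 2 dpa the difference was −1.60 (SE 0.33, adjusted p = 0.118). The call at 3 dpa held under 14 of 24 alternatives, with adjusted p from 0.00198 to 0.120, and was lost without any 1 vehicle array of 3 dpa, TCDD 2 dpa replicate 1 or 2, or TCDD 3 dpa replicate 1 or 3.

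rrm1 encodes the large subunit of ribonucleotide reductase, which makes deoxyribonucleotides. It read 0.07, 0.49 and 1.82 in vehicle fins at 2 dpa and 1.38, 0.52 and 1.16 at 3 dpa. The TCDD values were −0.49, −0.07 and −0.14 at 2 dpa and −0.50, −0.80 and −0.36 at 3 dpa, all below every vehicle value. Over both days rrm1 was 2.46-fold lower (95% interval 1.61 to 3.78, log2 difference −1.30, SE 0.28, adjusted p = 0.0272). Its differences by day were −1.03 at 2 dpa (adjusted p = 0.38) and −1.57 at 3 dpa (adjusted p = 0.0992). The call over both days was lost without vehicle 2 dpa replicate 2, vehicle 3 dpa replicate 1, TCDD 2 dpa replicate 1 or 3, or TCDD 3 dpa replicate 1 (adjusted p 0.0129 to 0.0947 over the alternatives).

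cad encodes the protein that carries the first enzymes of pyrimidine synthesis in animals. Vehicle arrays gave 0.19, 0.26 and 0.01 at 2 dpa and 0.80, 0.36 and 1.1 at 3 dpa. TCDD arrays gave −0.25, −0.17 and −0.15, then −0.12, −0.42 and −0.08. The treatments did not overlap, and vehicle 2 dpa replicate 3, the highest array for most of the genes, was here the lowest of the 6. cad was 1.57-fold lower over both days (95% interval 1.30 to 1.89, log2 difference −0.65, SE 0.12, adjusted p = 0.018) and 1.95-fold lower at 3 dpa (log2 difference −0.96, SE 0.17, adjusted p = 0.0405), with −0.34 at 2 dpa (SE 0.17, adjusted p = 0.528). Both of its probe sets were called over both days, at −0.52 and −0.78. At 3 dpa only 1 of them was (limma adjusted p = 0.0254 and 0.0789). The alternative with probe sets fitted singly counted a gene as called if either passed. Without the look-alike pair the adjusted p over both days was 0.0609, the highest of its 25 alternatives (lowest 0.00642). The call at 3 dpa held under 11 of 24 (adjusted p 0.0133 to 0.206) and, of the arrays left out singly, only without vehicle 3 dpa replicate 2, TCDD 2 dpa replicate 3 or TCDD 3 dpa replicate 2.

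tyms, thymidylate synthase, had the largest difference of the group after dut, and it did not pass the test. Its values were 0.28, 0.41 and 2.75 in vehicle fins at 2 dpa and 1.24, 0.12 and 0.72 at 3 dpa, against −0.62, −1.04 and −0.22 and then −0.13, −0.70 and −0.17 with TCDD. The treatments did not overlap, with the vehicle arrays spread over more than 2 log2 units. The mean difference was −1.40 (SE 0.41, adjusted p = 0.0741, 2.64-fold lower with an interval of 1.40 to 4.96).

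The other 4 nucleotide genes lay nearer to 0. dctpp1, a pyrophosphatase that clears modified cytosine nucleotides, had the smallest difference, −0.07 (95% interval −0.22 to 0.08, adjusted p = 0.615). All its arrays lay between −0.04 and 0.10 except vehicle 3 dpa replicate 1 at 0.30. tk1, the thymidine kinase of the salvage pathway, read −0.47, −0.17 and 0.25, then −0.17, −0.42 and −0.01 in vehicle fins. With TCDD it read −0.29, −0.68 and −0.39, then −0.44, −0.11 and −0.29, overlapping vehicle on both days (mean difference −0.20, SE 0.13, adjusted p = 0.438). The tk1 value averages 2 probe sets, at −0.17 and −0.23, and the first had a median of 0.620. The differences were −0.47 (adjusted p = 0.0865) for umps, which completes UMP synthesis, and −0.36 (adjusted p = 0.127) for ctps1a, a CTP synthase.

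**Figure D4:**
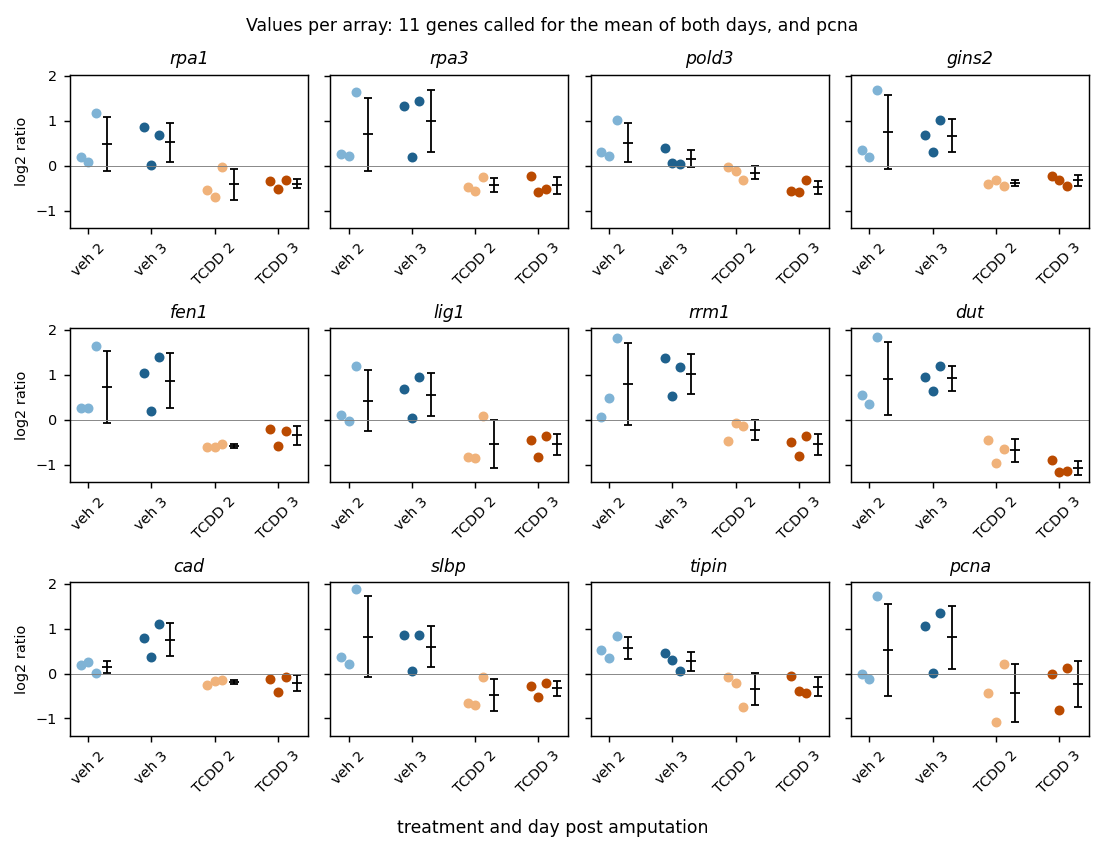
Log2 ratio per array (points) with the group mean and SD (bars, 3 arrays each) for the 11 genes called over both days and pcna. For dut, cad and rrm1 every TCDD point is below every vehicle point, while pcna overlaps on both days.

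Replication protein A, the heterotrimer that coats single-stranded DNA, had 2 of its 3 subunits called. rpa3 gave 0.26, 0.20 and 1.64 in vehicle fins at 2 dpa and 1.33, 0.19 and 1.44 at 3 dpa, against −0.47, −0.57 and −0.26 and then −0.22, −0.59 and −0.51 with TCDD. rpa1 gave 0.19, 0.08 and 1.18, then 0.85, 0.02 and 0.67, against −0.54, −0.69 and −0.02, then −0.34, −0.52 and −0.33. In both genes all 6 TCDD arrays were below all 6 vehicle arrays. rpa3 fell 2.43-fold over both days (95% interval 1.57 to 3.77, log2 difference −1.28, SE 0.28, adjusted p = 0.0308). rpa1 fell 1.87-fold (1.34 to 2.62, log2 difference −0.91, SE 0.22, adjusted p = 0.0401). The rpa1 call held with 1 array left out only for vehicle 3 dpa replicate 2 and TCDD 2 dpa replicate 3 (adjusted p 0.0184 to 0.104 over the alternatives). That of rpa3 was lost without vehicle 3 dpa replicate 1 or 3, any TCDD 2 dpa array, or TCDD 3 dpa replicate 1 or 3 (0.0166 to 0.0899).

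rpa2 had the lowest mean of the trimer and did not pass the test. Vehicle arrays read 0.27, −0.04 and 2.08 at 2 dpa and 0.99, 0.35 and 0.62 at 3 dpa. TCDD arrays read −0.76, −0.83 and 0.04 at 2 dpa and −0.19, −1.53 and −0.63 at 3 dpa. The groups overlapped at 2 dpa and not at 3 dpa, and the mean difference was −1.36 (SE 0.38, adjusted p = 0.0617).

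pcna, the sliding clamp and a common marker of proliferation, was not called. It read −0.02, −0.11 and 1.72 in vehicle fins at 2 dpa and 1.05, 0.01 and 1.36 at 3 dpa. TCDD fins gave −0.43, −1.08 and 0.21, then −0.01, −0.81 and 0.13. The treatments overlapped on both days, with the vehicle arrays near 0 among the upper TCDD arrays. The mean difference was −1.0 (SE 0.39, 95% interval −1.85 to −0.14, adjusted p = 0.161).

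The clamp loader genes, which open the PCNA ring and close it on DNA, had smaller differences. Those of rfc1, rfc3 and rfc5 were −0.61, −0.65 and −0.62, with adjusted p from 0.0764 to 0.0961. rfc4 had the smallest difference of the group: it read 0.00, 0.04 and 0.75, then 0.33, 0.13 and 0.04 in vehicle fins, and −0.15, −0.05 and 0.16, then −0.05, −0.40 and −0.18 with TCDD. Its mean difference was −0.33 (SE 0.14, adjusted p = 0.194), made of −0.54 and −0.12 from its 2 probe sets. The groups overlapped for rfc4 at 2 dpa and not at 3 dpa.

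Among polymerases and primase, pold3, an accessory subunit of polymerase delta, was the only gene called. It read 0.31, 0.21 and 1.02 in vehicle fins at 2 dpa and 0.38, 0.06 and 0.03 at 3 dpa, against −0.03, −0.11 and −0.32 and then −0.56, −0.58 and −0.31 with TCDD. Every TCDD value was below every vehicle value, with 0.03 and −0.03 the closest. pold3 fell 1.57-fold over both days (95% interval 1.26 to 1.96, log2 difference −0.65, SE 0.14, adjusted p = 0.0287). The call was lost without vehicle 3 dpa replicate 1 or 2, TCDD 2 dpa replicate 2 or 3, or TCDD 3 dpa replicate 1 (adjusted p 0.0168 to 0.118 over the alternatives).

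The polymerase alpha and primase complex, which lays down the first stretch of each strand, had larger mean differences and wider intervals. pola2, its accessory subunit, read 0.01, 0.08 and 2.11, then 1.63, 0.37 and 1.02 in vehicle fins, and −0.18, −0.37 and −0.01, then −0.12, −0.74 and −0.90 with TCDD. pola1, its catalytic subunit, read 0.08, −0.06 and 1.56, then 1.42, 0.13 and 1.44, and −0.52, −0.61 and −0.14, then −0.13, −0.38 and 0.05. Treatments did not overlap within either day in both genes, but across days the highest pola1 value with TCDD (0.05) passed the lowest of vehicle (−0.06). The mean differences were −1.26 for pola2 (SE 0.37, adjusted p = 0.0742), −1.05 for pola1 (SE 0.31, adjusted p = 0.0804) and −0.86 for prim1, the catalytic primase subunit (adjusted p = 0.112).

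The other delta and epsilon subunits lay closer to 0. pold1, the catalytic subunit of polymerase delta, read −0.19, −0.15 and 0.60, then 0.39, 0.04 and 0.57 in vehicle fins, and −0.31, −0.33 and −0.02, then −0.03, −0.12 and 0.06 with TCDD. The gene's value (mean difference −0.34, adjusted p = 0.215) averages 2 probe sets that disagreed, at 0.02 (SE 0.08) and −0.70 (SE 0.27), and the treatments overlapped on both days. pole3, a histone-fold subunit of polymerase epsilon, had the smallest difference of the group, −0.26 (95% interval −0.63 to 0.11, adjusted p = 0.41). It read 0.33, 0.12 and 0.28, then 0.25, 0.00 and −0.47 in vehicle fins, and −0.33, −0.14 and −0.03, then 0.00, −0.71 and 0.16 with TCDD. pole3 was separated at 2 dpa and overlapped at 3 dpa. pold2 and pole2 had differences of −0.52 and −0.53 (adjusted p = 0.1 and 0.193).

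In fork assembly and licensing, gins2 was called and another subunit of its complex, gins1, stayed near 0. The GINS complex joins the MCM ring and CDC45 in the active helicase. gins2 read 0.35, 0.19 and 1.69 in vehicle fins at 2 dpa and 0.68, 0.30 and 1.03 at 3 dpa, against −0.40, −0.32 and −0.45 and then −0.22, −0.31 and −0.45 with TCDD. All 6 TCDD values were below all 6 vehicle values, within 0.23 of each other. gins2 fell 2.09-fold over both days (95% interval 1.45 to 3.02, log2 difference −1.07, SE 0.24, adjusted p = 0.0311). Its call was lost without vehicle 3 dpa replicate 1 or 3, any TCDD 2 dpa array, or TCDD 3 dpa replicate 1 or 3 (adjusted p 0.00922 to 0.108).

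gins1 gave −0.29, −0.15 and 0.26, then 0.11, −0.05 and −0.04 in vehicle fins, and −0.05, −0.02 and −0.17, then 0.01, −0.04 and −0.02 with TCDD. The treatments overlapped and the mean difference was −0.02 (95% interval −0.23 to 0.18, adjusted p = 0.927). A ratio that hardly varies does not show that the transcript did not change, as signal above background cannot be read from these values. gins3 and gins4 had differences of −0.35 (adjusted p = 0.267) and −0.71 (adjusted p = 0.308).

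The licensing factors cdc6 and cdt1, which load the MCM ring at origins, were not called. cdc6 read 0.26, 0.00 and 1.94, then 0.72, −0.14 and 0.97 in vehicle fins, and −0.43, −0.20 and 0.00, then 0.01, −0.32 and −0.47 with TCDD. The 2 vehicle arrays at or below 0 lay among the TCDD arrays, and the mean difference was −0.86 (SE 0.32, adjusted p = 0.15). The remaining differences were −0.69 for cdt1, −0.29 for gmnn (geminin, which inhibits Cdt1), −0.23 for cdc7 (the kinase that fires origins), −0.68 for cdc45 and −0.84 for wdhd1, which links polymerase alpha to the helicase. Adjusted p for these 5 ran from 0.0921 to 0.473.

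Of the 4 genes of strand maturation and chromatin assembly, fen1 and lig1 were called. fen1, the nuclease that trims the flap of a lagging-strand fragment, read 0.25, 0.27 and 1.64 in vehicle fins at 2 dpa and 1.04, 0.18 and 1.39 at 3 dpa. With TCDD it read −0.61, −0.61 and −0.53, then −0.21, −0.59 and −0.25. The treatments did not overlap, and the 3 TCDD pools of 2 dpa lay within 0.1 of each other. fen1 fell 2.40-fold over both days (95% interval 1.59 to 3.63, log2 difference −1.26, SE 0.27, adjusted p = 0.0269). The call was lost without vehicle 3 dpa replicate 1, TCDD 2 dpa replicate 2 or 3, or TCDD 3 dpa replicate 1 or 3 (adjusted p 0.0106 to 0.0909).

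lig1, the ligase that seals the fragments, read 0.10, −0.03 and 1.2, then 0.68, 0.03 and 0.95 in vehicle fins. TCDD fins gave −0.83, −0.85 and 0.08, then −0.46, −0.83 and −0.37. The groups overlapped at 2 dpa through TCDD replicate 3 and did not at 3 dpa. lig1 fell 2.05-fold over both days (95% interval 1.36 to 3.07, log2 difference −1.03, SE 0.26, adjusted p = 0.0488). This call held under 7 of 25 alternatives (adjusted p 0.00935 to 0.107) and, with 1 array left out, only without TCDD 2 dpa replicate 3.

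chaf1b, a subunit of the factor that places histones on new DNA, read 0.45, −0.11 and 2.11, then 1.39, 0.14 and 1.23 in vehicle fins, and −0.02, 0.02 and −0.16, then −0.12, −0.35 and −0.31 with TCDD. rnaseh2a, the catalytic subunit of the enzyme that removes RNA from DNA, read −0.09, 0.08 and 1.03, then 0.76, 0.15 and 0.93, and −0.35, −0.30 and −0.09, then −0.24, −0.28 and 0.14. Neither passed the test: the mean differences were −1.02 (SE 0.35, adjusted p = 0.113) and −0.66 (SE 0.20, adjusted p = 0.0864). chaf1b overlapped at 2 dpa and not at 3 dpa, and rnaseh2a on neither day. The rnaseh2a margin was narrow: at 2 dpa its lowest vehicle array read −0.0873 and its highest TCDD array −0.0876.

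In cycle control and repair, tipin and slbp were called. tipin, which with Timeless steadies the fork, read 0.53, 0.35 and 0.83 in vehicle fins at 2 dpa and 0.46, 0.31 and 0.05 at 3 dpa, against −0.08, −0.21 and −0.74 and then −0.05, −0.38 and −0.43 with TCDD. The treatments did not overlap, and the vehicle arrays were closer together than for most of the genes. tipin fell 1.67-fold over both days (95% interval 1.34 to 2.07, log2 difference −0.74, SE 0.14, adjusted p = 0.0195). Its call was lost without moderation, with the hybridisation level as a block, and without vehicle 3 dpa replicate 1 (adjusted p 0.00648 to 0.0547 over the alternatives).

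slbp, the protein that binds the stem-loop of histone mRNAs, read 0.38, 0.22 and 1.87, then 0.86, 0.07 and 0.86 in vehicle fins. With TCDD it read −0.65, −0.70 and −0.07, then −0.28, −0.51 and −0.20, all below vehicle. slbp fell 2.16-fold over both days (95% interval 1.40 to 3.34, log2 difference −1.11, SE 0.28, adjusted p = 0.049). The call held under 6 of 25 alternatives (adjusted p 0.0204 to 0.116) and, with 1 array left out, only without vehicle 2 dpa replicate 3.

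chek1, the kinase of the replication checkpoint, read −0.01, −0.04 and 1.14, then 0.93, 0.01 and 1.32 in vehicle fins, and 0.01, −0.67 and 0.03, then −0.03, −0.26 and −0.28 with TCDD. It overlapped at 2 dpa, and its mean difference was −0.76 (SE 0.27, adjusted p = 0.13). cdk2, a kinase of S phase entry, had −0.67 (adjusted p = 0.106). msh6, of the mismatch repair dimer, read −1.28, −1.18 and −1.16, then −0.73, −1.19 and −0.94 in vehicle fins, and between −1.24 and −1.18 on all TCDD arrays. Its difference was −0.13 (SE 0.08, adjusted p = 0.377), and the 2 vehicle arrays above the rest were 3 dpa replicates 1 and 3. The median of its probe set was 0.439. As for gins1, a ratio that hardly varies does not show that the transcript did not change.

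Between the days the genes showed little movement that the arrays could resolve. From 2 to 3 dpa the median difference of the 43 genes was 0.10 in vehicle and 0.05 in TCDD fins. limma called none in either treatment (0% of all rows), and at an unadjusted p under 0.05 there were 2 in vehicle (cad at 0.60 and msh6 at 0.25, against 3.64% of all rows) and 0 in TCDD fins (3.76%). The test of whether the TCDD effect differed between the days also called none (0% of all rows). Its median was −0.01, and only cad had an unadjusted p under 0.05 (1.44% of all rows), with an effect lower at 3 dpa by −0.62 (SE 0.24). Leaving out vehicle 2 dpa replicate 3 moved the vehicle median to 0.40 and that of the day difference to −0.35.

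The neighbouring pathways were read from lists that share no gene with the 43, and each count stands beside the 3.67% of all rows that fell and the 2.13% that rose over both days. Of 13 measured MCM helicase and origin genes, 5 fell over both days and 0 rose, with a median of −0.71. They were mcm2 (−1.73) and mcm3 (−0.89) of the helicase ring and orc2 (−0.71), orc3 (−1.25) and orc5 (−1.31) of the origin recognition complex. Of 32 mitosis genes, 6 fell and 1 rose, with a median of −0.57. The 6 included ccnb1, cyclin B1 (−1.23), and plk1, a mitotic kinase (−1.32), and the gene that rose was kif20a, a kinesin of cell division (0.80). On vehicle 3 dpa replicate 1 the mitosis median was −0.04 where that of the 43 genes was 0.68.

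The other 3 lists had few calls. Beside the 3.67% of all rows, their counts of 2 of 26, 2 of 23 and 1 of 18 are too small to read as a result about these pathways. Mean differences over both days were below 0 for 20 of the 26, 19 of the 23 and 17 of the 18 (49.1% of all rows), which was not tested. Of 26 other nucleotide genes, ppat (−0.48), of purine synthesis, and hprt1 (−0.66), of purine salvage, fell, and the list median was −0.10. Of 23 other cycle genes e2f3 (−0.80) and tfdp2 (−0.75), transcription factors of S phase entry, fell, with a median of −0.28. Of 18 repair and checkpoint genes rad1 (−0.51), of the checkpoint clamp, fell, with a median of −0.22. At 2 dpa none of these 5 lists had a called gene, and at 3 dpa orc3 alone was called.

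**Figure D5:**
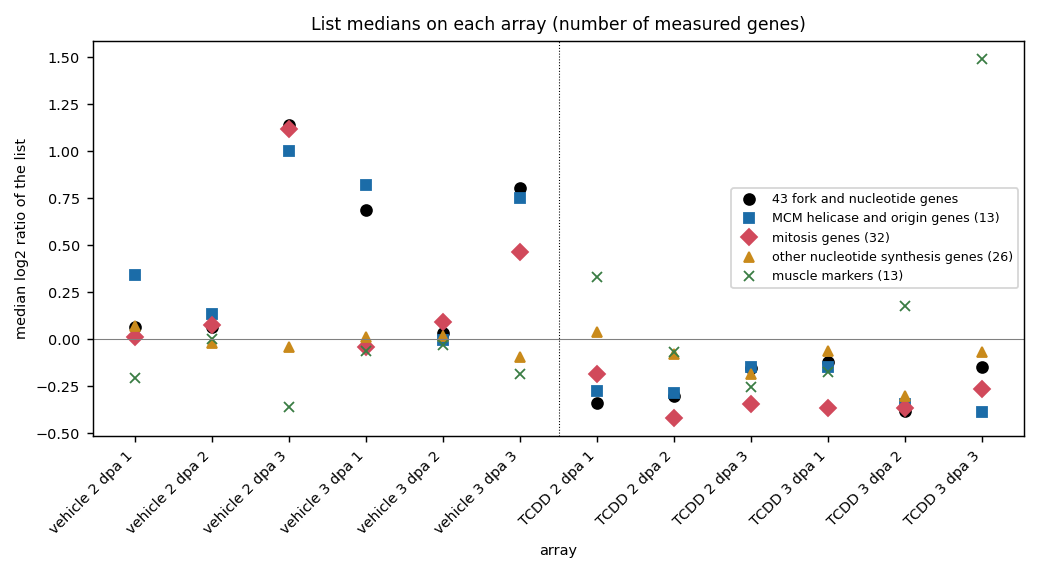
Median log2 ratio (vertical axis) on each of the 12 arrays (horizontal axis) for the 43 genes, 13 MCM helicase and origin genes, 32 mitosis genes, 26 other nucleotide genes and 13 muscle markers. The helicase and origin medians lie near those of the 43 genes on most arrays. They stand apart at vehicle 2 dpa replicate 1 (0.34 against 0.07) and TCDD 3 dpa replicate 3 (−0.38 against −0.15). The mitosis median at vehicle 3 dpa replicate 1 is −0.04 and the muscle median at TCDD 3 dpa replicate 3 is 1.49.

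Markers of the fin tissue and of other cell types moved with treatment in part. Of 9 listed pigment cell markers 4 were measured, with a median difference of −0.89 over both days. Of these, 3 were called lower (dct, mitfa and gch2), beside 3.67% of all rows. Their array medians were −0.20 to 0.49 in vehicle and −1.18 to −0.32 in TCDD fins. The 13 muscle markers had a median of 0.38 with none called, and array medians of −0.36 to 0.00 in vehicle and −0.25 to 1.49 in TCDD fins. Medians were 0.32 for 15 epidermal, −0.26 for 11 fin fold mesenchyme, 0.08 for 8 red blood cell, 0.04 for 12 neural and eye and 0.01 for 9 leukocyte markers. Called among these over both days were krt91, prrx1b and col1a2, all lower, and mpx, higher. Beside the 3.67% of all rows called lower and 2.13% called higher, these are too few to read as a result about the markers. The part of these markers in the values of the replication genes was not tested.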

How the data were processed

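Values are ratios on 12 Affymetrix zebrafish arrays that the authors deposited after GCRMA, per the submitters' processing notes (version not stated there). Per the labels, 100 ng of RNA entered Two-Cycle labelling. The scaling was read from the values: of 15617 rows, 12064 have a median of 1 within 1e-06, 3553 a lower one and 0 a higher one. The 115 control probe sets were left out. Symbols came from the platform annotation (10795 probe sets with 1 symbol, 135 with several, 4572 with none), updated through the GRCz12tu gene table. Log2 ratios of probe sets of a gene were averaged, giving 13500 rows with unnamed probe sets kept apart. limma 3.58.1 in R 4.3.3 (lmFit, eBayes) fitted 4 group means to all 12 arrays, with Benjamini-Hochberg adjustment over the 13500 rows and calls at an adjusted p under 0.05. The 4 groups share 1 estimate of the spread per gene, although vehicle SDs were above TCDD SDs for most of the replication genes. The SEs and intervals for a single day therefore also use the spread of the other day. Tests are two-sided and intervals are at 95%. For 3 v 3 arrays the lowest p of an exact permutation test is 0.1, and the number of arrays limits the precision. The script was tested on simulated data.

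The members, lists, the mean over both days and the naming rule (called genes, the 2 lowest and the 1 highest mean effect of each role, pcna, and pold1, whose probe sets disagree most in sign) were chosen with earlier results of these data known. Alternatives changed the value per gene, scaling, moderation, array weights, arrays used, blocks, a pseudocount of 0.1 and a filter for medians of 1. Values of tk1 and chaf1b on every array are given outside that rule, chosen after they were seen. Leaving out the look-alike TCDD pair and ignoring the day labels were added after seeing the data. No sequences are shown, as none were given for these genes.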

Additional observations from a re-analysis of the deposited data

How the results depend on the processing

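Counts of the 43 genes called depended on single arrays and on moderation. At 2 dpa the count of 0 became 2 (dut and tipin) with quantile normalization and 2 with array weights. At 3 dpa the count of 2 became 1 with arrays centred on their median, 1 with only the groups compared, 0 without moderation, 1 with the hybridisation level as a block and 0 without the look-alike TCDD pair, and ran from 0 to 3 with each array left out. Over both days 11 became 2 without moderation, 2 with the hybridisation block, 2 without the look-alike pair and 2 to 10 with each array left out, lowest without vehicle 3 dpa replicate 1. Whether replicate numbers pair the arrays is not stated, and the values do not settle it. Over 18 same-numbered pairs, deviations from the group means correlated from −0.257 to 0.500 across rows, 7 above 0.1. Of the 12 arrays, 7 were closest, among arrays of the other groups, to one of their own number. With the replicate number as a block 18 genes were called over both days, all 11 among them, and 3 at 3 dpa. The median at 2 dpa ran from −0.91 to −0.34 with each array left out. Over all rows, calls ranged from 6 to 298 at 2 dpa (26 in the reported fit), 10 to 456 at 3 dpa (77) and 271 to 1599 over both days (783). The comparisons of days called 0 rows, but 19 in vehicle and 13 for the day difference with the hybridisation block. In vehicle fins that level was low on every 2 dpa array and high on every 3 dpa array. It cannot be told apart from day there, and the block rests on TCDD 3 dpa replicate 2.

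Genes near 0 turned sign. gins1 at 2 dpa became 0.0088 with centring, 0.037 with quantile normalization, 0.092 with array weights and 0.027 without the look-alike pair, and ran from −0.14 to 0.14 with each array left out. Over both days it became 0.0044, 0.015 and 0.025 in the first 3 of these and ran from −0.080 to 0.058, and at 3 dpa from −0.049 to 0.028. msh6 at 2 dpa became 0.028, 0.013 and 0.016 in those 3, 0.012 without the look-alike pair, and ran from −0.040 to 0.023. At 3 dpa tk1 became 0.090 with the hybridisation block and ran from −0.19 to 0.013, pole3 from −0.31 to 0.15 and dctpp1 from −0.16 to 0.0022. Centring added 0.029 to every difference at 2 dpa and 0.026 to every difference over both days. The cause in the other settings was not tested. Of the results for the 26 named genes 1729 kept direction and call, 122 lost and 16 gained a call, and 25 turned sign.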
